A study of Homo sapiens with 6 samples.

Results

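The genes described here are 10 of the 22481 genes in the deposited count table: the death receptors FAS, TNFRSF10A, TNFRSF10B and TNFRSF1A, the decoy receptor TNFRSF10D, the adaptors FADD and TRADD, the kinase RIPK1, and the inhibitors CFLAR and XIAP. They were taken by name, as genes that carry or check an apoptotic signal from the cell surface. The cells were 143B, an established osteosarcoma cell line of human origin derived from the HOS line. The groups were 3 wells given celastrol, a plant triterpene, for 24 h, and 3 control wells kept in culture over the same 24 h, all on 1 plate after a first 24 h of growth. The labels give no celastrol dose and do not state whether a vehicle was given to the controls. A library stands for 1 well, and p-values therefore measure the spread between wells of 1 plate, which may be technical.

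Death receptors are transmembrane proteins of the TNF receptor family with a cytoplasmic death domain. When FAS ligand or TRAIL binds FAS, TNFRSF10A (DR4) or TNFRSF10B (DR5), the adaptor FADD joins the receptor and recruits procaspase-8, while CFLAR (c-FLIP), a caspase-8 homologue, enters the same complex and restrains or tunes its activation. TNFRSF1A (TNFR1) instead binds TRADD and RIPK1 first, in a membrane complex whose ubiquitin chains feed NF-κB, and RIPK1 can then pass into complexes that drive apoptosis or necroptosis. XIAP blocks the caspases downstream of both routes.

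Library totals ran from 38.4 to 39.5 M counts, and no 2 libraries of a group agreed within sampling noise. Principal component 1 (62.6% of the variance) split celastrol from control wells, with celastrol replicate 2 and control replicate 1 nearest to the other group. Of 8 osteoblast and mesenchymal markers, 5 reached 1 CPM (a gene's count scaled by its library total, with TMM factors) in some library. VIM reached 3557 CPM and the osteoblast factor RUNX2 35.8 CPM, while SP7, BGLAP and COL1A2 stayed below 1 CPM. Of 6 epithelial markers, 3 reached 1 CPM in some library: the keratins KRT8 and KRT18, at up to 365 and 977 CPM, and EPCAM, at up to 7.14 CPM. CDH1 and KRT19 stayed below 1 CPM, and KRT5 was not analysed here. PTPRC and CD14, the blood markers with a row, stayed below 1 CPM. Of 4 endothelial markers, 1 reached 1 CPM in some library, KDR at up to 1.42 CPM.

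Of the 10 genes, 9 passed the filter on low counts, and 4 of these 9 changed with celastrol: RIPK1 and FADD rose, and CFLAR and TNFRSF10B fell (edgeR's quasi-likelihood test, adjusted p under 0.05 over all genes tested). Over all 15387 genes tested, 48.4% were called by the same rule, 23.6% higher and 24.8% lower, so the share called among these genes is near that of the table as a whole. The median log2 fold change of the 9 genes was -0.026, beside -0.00024 over all genes tested. RIPK1 changed by more than 86.7% of all genes tested in absolute log2 fold change, CFLAR by more than 71.7%, FADD by more than 65.3% and TNFRSF10B by more than 61.3%. In bulk RNA, fewer cells that carry a transcript and less of it per cell cannot be told apart.

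Promoter windows of RIPK1 and FADD, whose RNA rose, and of CFLAR, whose RNA fell, are shown because these changes went in opposite directions. RefSeq (GRCh38.p14) gave 15 promoter windows, each 250 bases before to 50 bases after an annotated start, for 6 of the 10 genes, matched by NCBI gene ID. Below are the most upstream window of RIPK1 (chr6:3063717-3064016, plus strand), the window of FADD (chr11:70203046-70203345, plus strand) and the most upstream window of CFLAR (chr2:201118466-201118765, plus strand), 5′ to 3′. Capitals mark matches to any of 6 motifs searched on both strands.
RIPK1: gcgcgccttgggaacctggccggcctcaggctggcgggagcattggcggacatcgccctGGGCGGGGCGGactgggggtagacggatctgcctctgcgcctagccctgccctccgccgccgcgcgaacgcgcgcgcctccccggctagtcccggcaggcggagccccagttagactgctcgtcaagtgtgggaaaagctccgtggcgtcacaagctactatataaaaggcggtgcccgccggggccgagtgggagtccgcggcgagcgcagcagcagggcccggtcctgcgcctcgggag
FADD: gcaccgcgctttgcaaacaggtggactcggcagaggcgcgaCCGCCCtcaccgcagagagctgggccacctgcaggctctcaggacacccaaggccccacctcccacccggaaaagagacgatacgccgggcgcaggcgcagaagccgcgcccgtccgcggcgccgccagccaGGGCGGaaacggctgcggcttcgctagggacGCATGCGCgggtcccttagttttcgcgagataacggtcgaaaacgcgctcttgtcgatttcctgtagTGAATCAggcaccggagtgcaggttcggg
CFLAR: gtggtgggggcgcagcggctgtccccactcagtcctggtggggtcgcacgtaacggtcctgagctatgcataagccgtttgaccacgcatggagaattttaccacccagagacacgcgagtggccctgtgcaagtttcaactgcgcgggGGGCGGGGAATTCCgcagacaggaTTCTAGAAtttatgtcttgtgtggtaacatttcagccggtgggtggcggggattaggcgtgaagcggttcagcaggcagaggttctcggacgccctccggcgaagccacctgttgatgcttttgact
The motifs were the NF-κB consensus, the ATF4-CHOP composite element TGATGCAA, the heat shock element core TTCNNGAA, the AP-1 site TGANTCA, the GC box GGGCGG and the NRF1 core GCATGCGC. The printed CFLAR window lies downstream of the gene's RefSeq start (201116164), which no window covered. It held 1 NF-κB consensus match that starts 97 bases before that window's own annotated start and overlaps the only GC box. It also held 1 heat shock element core 77 bases before the same start. An NF-κB match was found in 11.3% of all 35116 RefSeq promoter windows and a heat shock core in 7.74%. The FADD window held 2 GC boxes, 1 NRF1 core (in 3.05% of all windows) and 1 AP-1 site (in 7.71%), and the RIPK1 window held 2 GC boxes that share a base, a motif present in 45.0% of all windows. No ATF4-CHOP element (0.866% of all windows) matched in any of the 15 windows. TNFRSF10A, TNFRSF10B, TNFRSF10D and TRADD had no window, so their promoters were not searched for any motif. Over the 15 windows of all 6 genes, an NF-κB match was found in 2, 1 of 4 CFLAR windows (the one printed) and 1 of 3 FAS windows. FAS did not pass the test. A match describes letters in these windows and is no measurement of binding.

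Among the receptors, TNFRSF10B, the DR5 receptor for TRAIL (NCBI gene 8795, chromosome 8), fell and was also the most read of the 10 genes. It stood at 212, 224 and 207 CPM in celastrol replicates 1, 2 and 3, against 268, 309.8 and 293 CPM in control replicates 1, 2 and 3. Every celastrol well lay below every control well, as in 28.6% of all genes tested. Its fitted log2 fold change was -0.44 ± 0.064 (SE, adjusted p = 2.0e-05), with a 95% interval of -0.57 to -0.30. Control replicate 1 was the control nearest to the celastrol wells. TNFRSF10B shares 67 exon bases (1.30%) with RHOBTB2 on the opposite strand in GENCODE 29.

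TNFRSF10A, the DR4 receptor for the same ligand (gene 8797, chromosome 8), did not pass the test. It had 37.0, 39.1 and 41.1 CPM in the celastrol wells, against 39.2, 40.3 and 39.7 CPM in the control wells. The groups overlapped, and the log2 fold change of -0.026 had a 95% interval of -0.20 to 0.15, which covers changes of 0.871-fold to 1.11-fold (adjusted p = 0.822). Its sign turned with library size alone, on log2 FPKM and without celastrol replicate 1.

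TNFRSF1A, the TNF receptor that starts the TRADD and RIPK1 route (gene 7132, chromosome 12, 6328771 to 6342076), had 152, 166 and 154 CPM in the celastrol wells. The control wells had 179, 178 and 157 CPM. Control replicate 3 fell within the celastrol range, and the log2 fold change of -0.12 did not pass (95% interval -0.27 to 0.017, adjusted p = 0.135). It passed only without control replicate 3 (-0.18, adjusted p = 0.0348), in a range of 0.0348 to 0.483 over its 17 alternatives.

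FAS, the CD95 receptor (gene 355, chromosome 10, 88964050 to 89017059), was the least read of the tested genes. It had 8.21, 8.70 and 6.59 CPM in the celastrol wells, against 7.20, 6.68 and 6.07 CPM in the control wells. Celastrol replicates 1 and 2 lay above all controls and replicate 3 among them, and the log2 fold change of 0.24 did not pass (95% interval -0.10 to 0.58, adjusted p = 0.24). FAS shares 380 exon bases with ACTA2 on the opposite strand, 8.93% of its exon bases in GENCODE 29. ACTA2 itself had 240, 207 and 248 counts in the celastrol wells, against 543, 438 and 470 counts in the control wells. Strand use in the counting was not stated in these sources, so the part of ACTA2 reads in the FAS count was not tested.

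TNFRSF10D, a TRAIL receptor with a truncated death domain that acts as a decoy (gene 8793, chromosome 8), was nearly unread and was not tested. It had 0, 2 and 15 counts in celastrol replicates 1, 2 and 3, against 6, 6 and 0 counts in control replicates 1, 2 and 3. Its highest value was 0.38 CPM, and a count of 0 allows up to 3 counts, 0.0760 to 0.0781 CPM at these depths, for counting error only. The groups overlapped, and the wells within each group differed more than the groups did.

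FADD, the adaptor that links FAS and the TRAIL receptors to caspase-8 (gene 8772, chromosome 11, 70203296 to 70207390), rose. It had 99.0, 93.3 and 99.6 CPM in the celastrol wells, against 81.0, 62.4 and 64.9 CPM in the control wells. Every celastrol well lay above every control well, as in 28.4% of all genes tested, and control replicate 1 was again the nearest control. The log2 fold change was 0.49 ± 0.087 (SE, adjusted p = 0.000186), a 1.40-fold rise with a 95% interval of 1.23-fold to 1.59-fold. Exons of AP000879.1, an antisense gene in GENCODE 29, cover 54.9% of FADD's exon bases. That antisense gene was not analysed here, and its part in the FADD count was not tested.

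TRADD, the adaptor of TNFRSF1A (gene 8717, chromosome 16, 67154185 to 67159909), did not pass. It had 11.05, 9.39 and 9.76 CPM in the celastrol wells, against 14.5, 9.18 and 9.71 CPM in the control wells. Control replicate 1 stood above all other wells, while control replicates 2 and 3 lay within or just below the celastrol range. The log2 fold change was -0.14 (95% interval -0.49 to 0.21, adjusted p = 0.499), and without control replicate 1 it was 0.089 (adjusted p = 0.637).

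RIPK1, the kinase that sits between NF-κB signalling and cell death (gene 8737, chromosome 6, 3063967 to 3115187), had the largest change of the 9 tested genes. It had 68.0, 62.3 and 68.5 CPM in the celastrol wells, against 39.7, 34.1 and 30.1 CPM in the control wells. The groups did not overlap, and control replicate 1 was the nearest control here too. The log2 fold change was 0.94 ± 0.095 (SE, adjusted p = 4.0e-07), a 1.91-fold rise with a 95% interval of 1.67-fold to 2.196-fold. The antisense gene AL031963.3, not analysed here, shares 238 of its exon bases (5.63%) in GENCODE 29.

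CFLAR, the caspase-8 homologue that restrains caspase-8 at the receptor (gene 8837, chromosome 2, 201116164 to 201176687), fell. It had 60.7, 71.2 and 65.1 CPM in the celastrol wells, against 94.3, 104 and 95.4 CPM in the control wells. All celastrol wells lay below all control wells. The log2 fold change was -0.57 ± 0.075 (SE, adjusted p = 6.61e-06), which is 0.671-fold with a 95% interval of 0.602-fold to 0.749-fold. CFLAR is made as long and short protein forms, and the table holds 1 value per gene, so these forms were not told apart; GENCODE 29 lists 25 CFLAR transcripts. In GENCODE 29, CFLAR shares exon bases with IMPDH1P10 (1488 bases, 6.60%) and CFLAR-AS1 (777 bases, 3.45%) on the opposite strand and with AC007283.1 on the same strand (445 bases, 1.98%). CFLAR-AS1 had 2 to 14 counts per library, IMPDH1P10 and AC007283.1 were not analysed here, and their part in the CFLAR count was not tested.

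XIAP, an inhibitor of caspases (gene 331, chromosome X, 123859708 to 123913972), did not pass with all libraries. It had 34.9, 38.9 and 36.3 CPM in the celastrol wells, against 35.9, 31.6 and 29.2 CPM in the control wells. Celastrol replicate 1 lay below control replicate 1, so the groups overlapped, and the log2 fold change was 0.19 (95% interval -0.013 to 0.39, adjusted p = 0.114). The call rests on 1 library: without control replicate 1 XIAP passed (0.27, adjusted p = 0.0146), in a range of 0.0146 to 0.357 over its 17 alternatives. Control replicate 1 was the control well closest to the celastrol wells for TNFRSF10B, FADD, RIPK1 and CFLAR and the highest control for TRADD and XIAP.

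**Figure D1:**
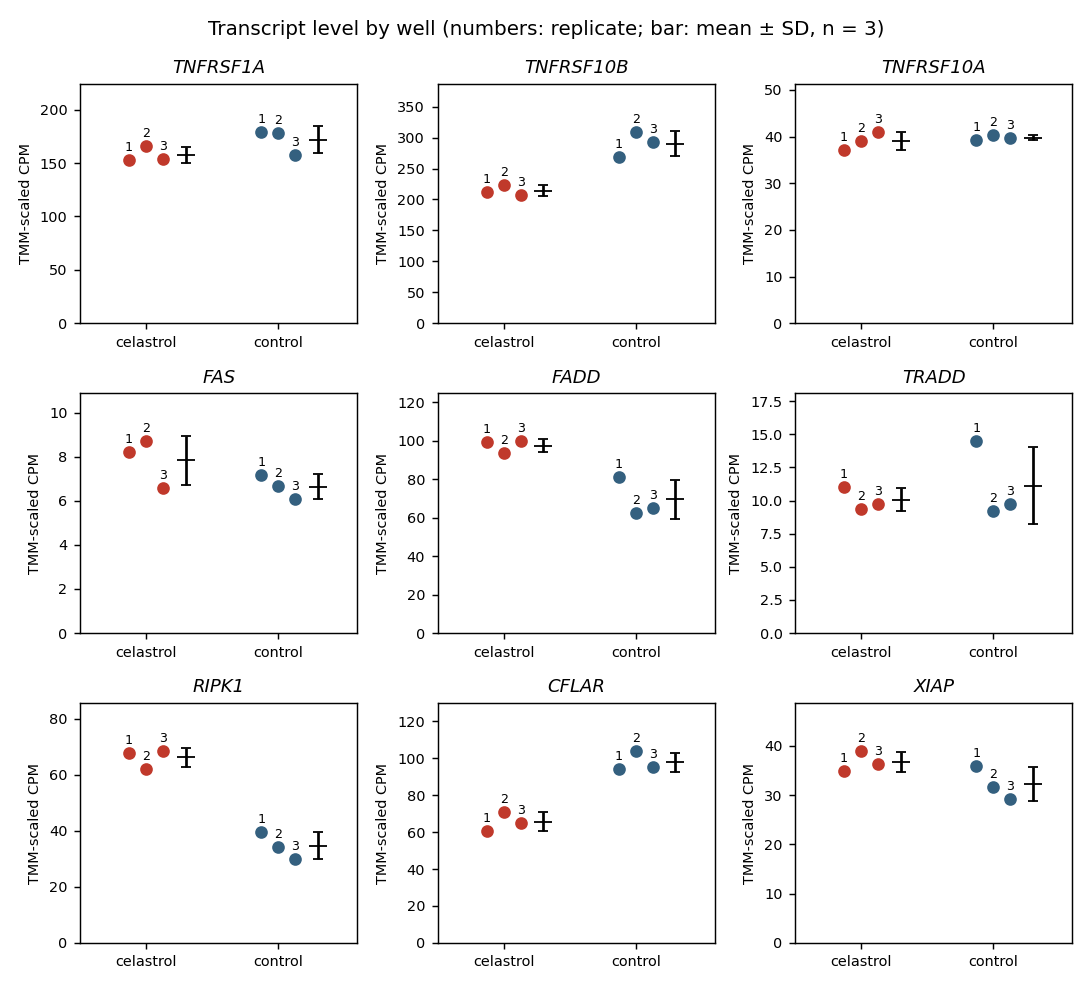
TMM-scaled CPM (vertical axis, from 0) of the 9 tested genes in each celastrol well and each control well. Points are wells with their replicate number and bars are mean ± SD (n = 3). The celastrol wells lie above all control wells for FADD and RIPK1 and below all control wells for TNFRSF10B and CFLAR, and the groups overlap for the other 5 genes.

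**Figure D2:**
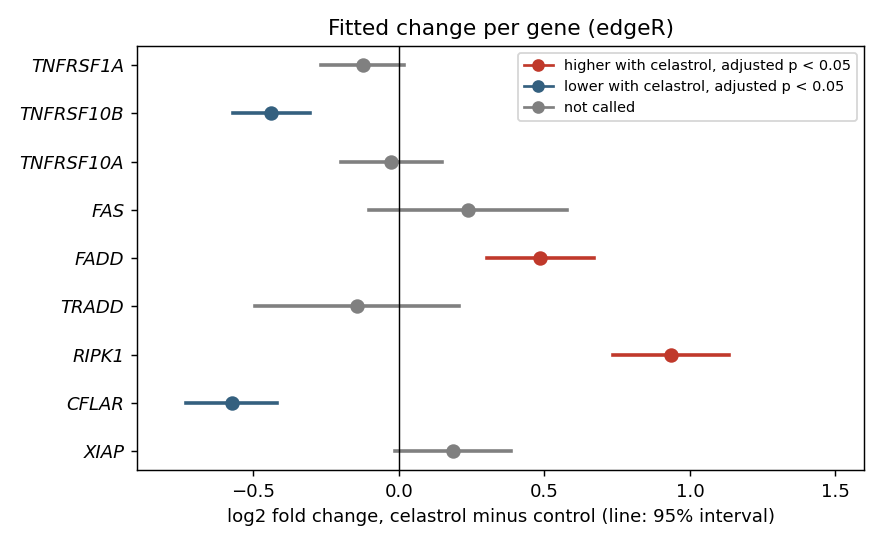
Fitted log2 fold change (horizontal axis, celastrol minus control) of the 9 tested genes by edgeR, with 95% intervals as lines. RIPK1 at 0.94 and FADD at 0.49 lie to the right of 0, CFLAR at -0.57 and TNFRSF10B at -0.44 to the left, and the intervals of the other 5 genes cross 0.

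Levels can be compared between genes per length only. On the deposited FPKM scale, celastrol wells averaged 69.8 ± 3.47 for TNFRSF1A, 57.8 ± 1.97 for FADD and 54.4 ± 2.30 for TNFRSF10B (SD, n = 3). Control wells averaged 74.0 ± 5.94 FPKM for TNFRSF1A, 71.6 ± 5.07 FPKM for TNFRSF10B and 40.1 ± 5.97 FPKM for FADD. On this scale, FADD and TNFRSF10B thus lay near each other under celastrol. In controls TNFRSF10B stood with TNFRSF1A, within their spread, and FADD below both. TNFRSF10A followed at 14.7 ± 0.691 FPKM with celastrol and 14.6 ± 0.209 FPKM in controls. RIPK1 came next at 11.1 ± 0.558 FPKM with celastrol and 5.65 ± 0.824 FPKM in controls, where it did not stand apart from TRADD (5.03 ± 1.34 FPKM). The lowest with celastrol were TRADD at 4.69 ± 0.419 FPKM, XIAP at 4.24 ± 0.237 FPKM, CFLAR at 2.90 ± 0.231 FPKM and FAS at 0.857 ± 0.124 FPKM, and TRADD and XIAP did not differ beyond their spread. In controls CFLAR averaged 4.199 ± 0.238 FPKM and XIAP 3.63 ± 0.403 FPKM. Every control value of CFLAR lay above every control value of XIAP, but the closest were 4.058 and 4.055 FPKM. The difference between these genes was not tested. FAS was again lowest in controls at 0.707 ± 0.0643 FPKM. This order rests on the lengths behind the FPKM values, which count and FPKM together give as 2289 bases for TNFRSF1A, 6046 for RIPK1, 9284 for FAS and 22973 for CFLAR. The exon bases of all GENCODE 29 transcripts merged are 4005 for TNFRSF1A, 4231 for RIPK1, 4253 for FAS and 22529 for CFLAR. On these merged lengths, an alternative chosen after the data were seen, TNFRSF1A averaged 39.9 ± 1.98 FPKM with celastrol and 42.3 ± 3.39 FPKM in controls (SD, n = 3). It then stood below FADD with celastrol (53.6 ± 1.83 FPKM) and below TNFRSF10B in controls (55.5 ± 3.93 FPKM). TNFRSF10B averaged 42.2 ± 1.79 FPKM with celastrol, so on these lengths it lay below FADD and near TNFRSF1A. FADD averaged 37.2 ± 5.54 FPKM in controls, beside 42.3 ± 3.39 FPKM for TNFRSF1A. RIPK1 averaged 15.9 ± 0.797 FPKM with celastrol and 8.07 ± 1.18 FPKM in controls, above TNFRSF10A with celastrol (13.4 ± 0.63 FPKM) and above TRADD in controls (4.27 ± 1.14 FPKM). FAS remained the lowest, at 1.87 ± 0.271 FPKM with celastrol and 1.54 ± 0.14 FPKM in controls. A comparison of 1 gene between the groups does not depend on the length used.

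Ratios within a well set an inhibitor or adaptor against its partner, and such a ratio does not depend on library scaling. The ratio of CFLAR to CASP8, the initiator caspase that it restrains, was 0.309, 0.336 and 0.330 in celastrol replicates 1, 2 and 3, against 0.569, 0.680 and 0.586 in control replicates 1, 2 and 3 (FPKM over FPKM). The ratio was lower in every celastrol well, by -0.91 on the log2 scale or 0.533-fold (two-sided exact permutation p = 0.1, the smallest that 3 wells against 3 allow). CASP8 itself rose, with 30.7 ± 1.31 CPM in celastrol wells and 24.4 ± 1.04 CPM in control wells (log2 fold change 0.33, adjusted p = 0.00633).

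The ratio of TRADD to FADD was 0.0875, 0.0789 and 0.0768 in the celastrol wells, against 0.140, 0.115 and 0.117 in the control wells. It too was lower in every celastrol well (-0.61 on the log2 scale, two-sided exact permutation p = 0.1). The ratio of XIAP to DIABLO, the mitochondrial protein that displaces caspases from XIAP, was 0.233, 0.270 and 0.252 in the celastrol wells, against 0.278, 0.203 and 0.177 in the control wells. Those groups overlapped (0.22 on the log2 scale, two-sided exact permutation p = 0.4), and DIABLO had 55.0 ± 1.36 CPM with celastrol and 56.5 ± 6.98 CPM in controls (adjusted p = 0.75). A ratio of TNFRSF10D to TNFRSF10A plus TNFRSF10B has no log value, since 2 libraries hold no TNFRSF10D count.

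**Figure D3:**
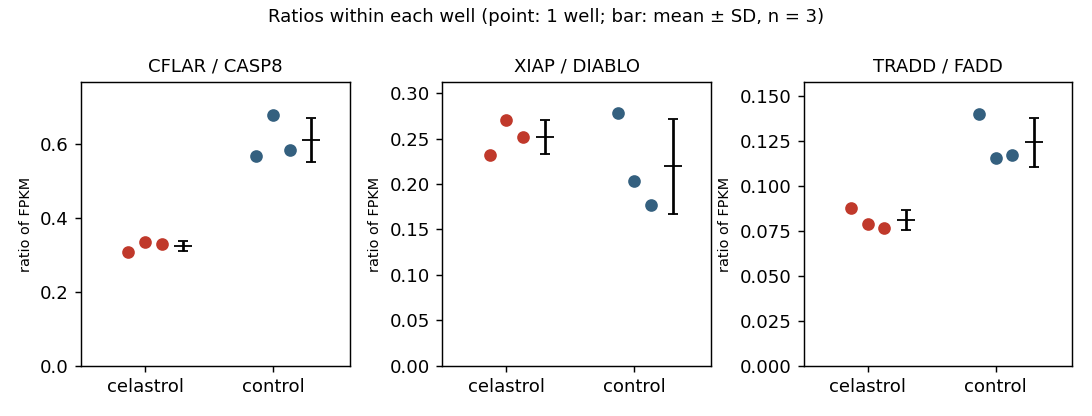
Ratio of FPKM values within each well (vertical axes, from 0) for CFLAR over CASP8, XIAP over DIABLO and TRADD over FADD. Points are wells and bars are mean ± SD (n = 3). CFLAR over CASP8 and TRADD over FADD are lower in every celastrol well than in any control well, and XIAP over DIABLO overlaps.

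Other genes of the pathway were read from set lists. The count called in each list stands beside 23.6% of all genes tested called higher and 24.8% called lower. Among ligands, LTA, which binds TNF receptors, had 5, 10 and 17 counts in the celastrol wells and 7, 5 and 13 in the control wells (adjusted p = 0.75), LTB and TNFSF15 were too low to test, and TNF, FASLG and TNFSF10 were not analysed here. Of 8 other tested TNF receptor family genes, 2 rose and 3 fell (median log2 fold change -0.37). TNFRSF11B, a secreted decoy for TRAIL and RANKL, rose to 5.67 ± 0.9 CPM with celastrol, against 1.34 ± 0.456 CPM in controls (2.08, adjusted p = 4.39e-06), and the lymphotoxin receptor LTBR rose by less (0.22, adjusted p = 0.0183). LTBR missed the threshold in 4 of 17 alternatives. Its adjusted p was 0.0523 when celastrol replicate 2 was left out, 0.0573 for celastrol replicate 3, 0.106 for control replicate 3 (log2 fold change 0.14) and 0.0684 with limma on log2(FPKM + 0.1). NGFR, a neurotrophin receptor with a death domain, had 4.98, 3.57 and 4.39 CPM in the celastrol wells, against 13.2, 18.4 and 29.1 CPM in the control wells (-2.23, adjusted p = 0.000125). TNFRSF21 (DR6) fell (-0.49, adjusted p = 0.000147), as did TNFRSF1B, the second TNF receptor (-1.65, adjusted p = 0.00225). TNFRSF1B was read at a low level, 0.528 ± 0.135 CPM with celastrol and 1.67 ± 0.184 CPM in controls. The decoy TNFRSF10C stayed near 1 CPM or below and did not pass (adjusted p = 0.158).

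Downstream of the receptors, CASP8 rose as given above. BID, which carries the caspase-8 signal to mitochondria, had 27.6, 29.9 and 30.5 CPM in the celastrol wells, against 24.7, 26.1 and 25.8 CPM in the control wells, and did not pass (adjusted p = 0.0821). CASP6 did not pass either (adjusted p = 0.647). MLKL, the necroptosis effector, had 23.5 ± 1.1 CPM with celastrol and 22.1 ± 2.68 CPM in controls (adjusted p = 0.54).

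Among 20 genes of the TNF receptor complex that RIPK1 joins, 3 rose and 5 fell (median 0.018). The falls were led by BIRC3 (cIAP2), a ubiquitin ligase for RIPK1, at 0.448, 0.506 and 1.19 CPM in the celastrol wells, against 7.95, 10.4 and 10.5 CPM in the control wells (-3.75, adjusted p = 3.73e-08). TNFAIP3 (A20), an enzyme that edits ubiquitin on RIPK1, had 2.99, 2.15 and 2.92 CPM in the celastrol wells, against 16.2, 32.3 and 30.5 CPM in the control wells (-3.29, adjusted p = 6.53e-06). In both genes every celastrol well lay below every control well. BIRC2 (cIAP1), the close relative of BIRC3, had 76.4 ± 2.32 CPM with celastrol and 75.4 ± 1.44 CPM in controls (adjusted p = 0.833). The ligase scaffold TRAF2 (0.37, adjusted p = 0.00373), the kinase CHUK (0.28, adjusted p = 0.0114) and the LUBAC subunit RBCK1 (0.24, adjusted p = 0.0145) rose, and the other falls were in TRAF5 (-0.98), TNIP1 (-0.65) and IKBKB (-0.24). The deubiquitinase CYLD (adjusted p = 0.788) and the LUBAC subunits RNF31 (0.409) and SHARPIN (0.466) did not pass.

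Of 5 tested inhibitor of apoptosis genes and their antagonists besides XIAP, survivin (BIRC5) rose (0.52, adjusted p = 7.97e-06). The antagonist HTRA2 fell slightly (-0.23, adjusted p = 0.0322), and its call was lost in 7 of 17 alternatives, among them those without celastrol replicate 1, 2 or 3 (adjusted p = 0.0512, 0.0955 and 0.0973) or control replicate 3 (0.0677). SEPTIN4 was read at 1, 7 and 7 counts in the celastrol wells, against 37, 59 and 31 counts in the control wells (adjusted p = 0.000548). Of 12 other regulators, 3 rose and 4 fell. FAIM, a FAS apoptosis inhibitor, rose (0.83, adjusted p = 0.000213), as did CASP8AP2, a binding partner of caspase-8 (0.72, adjusted p = 8.12e-05). TNFAIP8, a TNF-induced regulator of cell death (-0.88, adjusted p = 0.000543), and DEDD2, a death effector domain protein (-0.30, adjusted p = 0.0143), fell. DEDD2 missed the threshold when celastrol replicate 1 or 2 was left out (adjusted p = 0.0728 and 0.064).

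CFLAR, FAS and TNFRSF10B are known targets of factors whose other targets were also measured. Of 10 tested NF-κB targets, 5 fell and 5 did not pass (median -1.15), with BCL2A1 (-2.71, adjusted p = 4.38e-10) and RELB (-1.99, adjusted p = 8.18e-09) the furthest down, while SOD2 was at 0.017 (adjusted p = 0.89). CXCL8, the chemokine interleukin-8, stood on the other side at 9.01, 6.93 and 8.16 CPM in the celastrol wells, against 2.29, 4.39 and 7.14 CPM in the control wells, and did not pass (0.80, adjusted p = 0.072). Celastrol replicate 2 lay just below control replicate 3. DESeq2 and limma-voom each called 1 NF-κB target higher and 5 lower. Of 12 p53 targets, 4 rose and 4 fell (median -0.089). TP53I3 (0.53, adjusted p = 0.0262) and RRM2B (0.38, adjusted p = 0.00855) rose, and BBC3 (-0.90, adjusted p = 1.72e-05) and CDKN1A (-0.77, adjusted p = 9.08e-08) fell. TP53I3 missed the threshold in 5 of 16 alternatives, all with libraries left out. Its adjusted p was then 0.0511 for celastrol replicate 2, 0.111 for celastrol replicate 3, 0.0602 for control replicate 1, 0.0876 for control replicate 2 and 0.0736 for celastrol replicate 2 and control replicate 1 together. Of 8 genes of the ATF4 and CHOP arm of the stress response, 4 rose and 4 did not pass (median 0.69). DESeq2 also called 4 of the 8 higher, and limma-voom called 5 higher. Those that rose included the glutathione-degrading enzyme gene CHAC1 (2.43, adjusted p = 2.9e-06) and SESN2 (1.31, adjusted p = 7.66e-07). DDIT3, which encodes CHOP, a factor known to activate TNFRSF10B, had 35.5, 23.3 and 36.3 CPM in the celastrol wells, against 12.4, 13.8 and 26.5 CPM in the control wells. Control replicate 3 lay above celastrol replicate 2, and DDIT3 did not pass (0.85, adjusted p = 0.125). The part of any of these factors in the changes of RIPK1, FADD, CFLAR or TNFRSF10B was not tested.

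**Figure D4:**
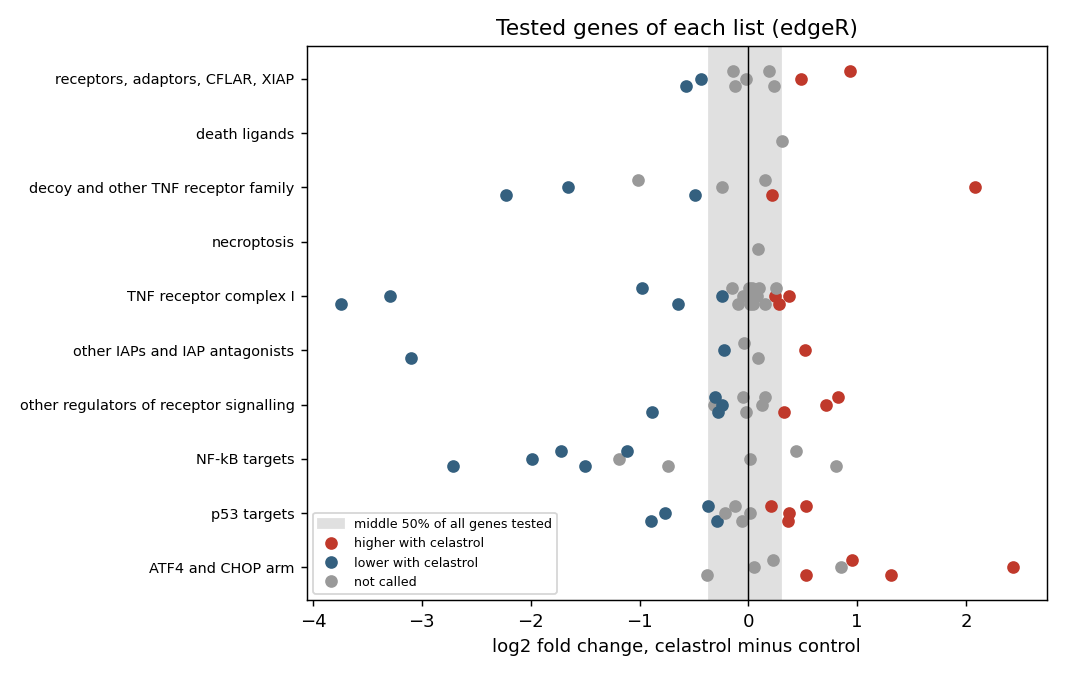
Log2 fold change (horizontal axis, celastrol minus control) of the tested genes of each list shown, 1 point per gene, with colour for the edgeR call. The grey band is the middle 50% of all 15387 genes tested, from -0.36 to 0.30. NF-κB targets reach -2.71 and the TNF receptor complex -3.75, and the ATF4 and CHOP arm reaches 2.43.

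By distance over the 6 libraries (log2 CPM centred on each gene's mean, over 8691 candidate genes whose average log2 CPM was 4 or more), the 3 profiles nearest to CFLAR were those of DNASE1L1 (0.0809), LOXL1-AS1 (0.0868) and NET1 (0.0894). Those nearest to TNFRSF10B were EPN2 (0.0527), ZNF516 (0.0597) and LRCH1 (0.0648). With 6 libraries in 2 groups, the distances mostly compare the size of the difference between groups.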

How the data were processed

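The 6 libraries are poly(A) RNA-seq of 143B cells, read in pairs on a NovaSeq instrument from a strand-marking protocol, per the labels' protocols. The submitters' processing notes name StringTie 2.1.6, HISAT2 2.2.1, cutadapt 1.9, edgeR and DESeq2, and the build hg38. What each was used for, the annotation release and the strand setting are not stated in these sources. The deposited counts are whole reads per gene, not normalized. The deposited FPKM values were scaled by the authors for gene length and library total, and counts and FPKM imply the same length in every library.

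Low genes were removed by filterByExpr (edgeR 4.0.16), and the rest were scaled by TMM and tested with the quasi-likelihood test (R 4.3.3), adjusted by Benjamini-Hochberg over all genes tested. A gene was called at an adjusted p under 0.05, and all single-gene adjusted p-values come from this fit unless an alternative is named. The SE is the absolute log2 fold change over the square root of F, and 95% intervals use the fit's degrees of freedom. Ratios were compared by two-sided exact permutation tests. Other scalings and filters were tried as alternatives, as were DESeq2 1.42.0, limma 3.58.1, log2 FPKM with 1 or 0.1 added, a replicate block and libraries left out; where a left-out library leaves 2 in a group, the spread is pooled over both groups.

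The 10 genes and all lists were chosen with earlier results of these data known. Named list genes are up to 2 called genes in each direction per list, with the largest change and a log2 CPM of at least 1, together with CASP8, BID, TNFSF10, DIABLO and DDIT3. Any other list gene was named with its value known, and some list genes are not reported here. The 3 nearest profiles were taken for CFLAR and TNFRSF10B. Coordinates come from RefSeq (GRCh38.p14), where 21761 of 22481 genes matched on their NCBI ID. The 6 motifs were chosen after the changes were known.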

Additional observations from a re-analysis of the deposited data

How the results depend on the processing

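RIPK1, FADD, CFLAR and TNFRSF10B kept their direction and their call in all 17 alternatives each, with a largest adjusted p of 0.014. With 1 library left out at a time, their log2 fold changes ran from 0.84 to 1.04 for RIPK1, 0.41 to 0.61 for FADD, -0.64 to -0.52 for CFLAR and -0.49 to -0.39 for TNFRSF10B. Genes called higher ran from 2 to 3 and lower from 2 to 3 among the 9.

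Genes that did not pass moved more. TNFRSF10A turned to 0.016 with library size alone, 0.014 on log2(FPKM + 1) and 0.015 on log2(FPKM + 0.1), and ran from -0.066 to 0.0084 with 1 library left out. TRADD ran from -0.27 to 0.089, and was 0.14 without both celastrol replicate 2 and control replicate 1. XIAP ran from 0.12 to 0.27, passing without control replicate 1, and without that library and celastrol replicate 2 together (0.23, adjusted p = 0.0497). TNFRSF1A ran from -0.18 to -0.094, passing without control replicate 3. The cause was not tested. FAS and TRADD gave no value with at least 10 CPM required in 3 libraries.

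Of the 24 list genes named by rule, 5 lost their call in 19 of 403 fits (CHUK, DEDD2, HTRA2, LTBR and TP53I3), and none changed sign in these fits. Whether the replicate numbers pair the wells was not settled. Same-numbered deviations correlated at only 0.058, 0.055 and 0.034, although each library correlated best with its own number. With the replicate block, 3831 genes were higher and 3928 lower, against 3634 and 3815 without it, and all 9 calls stayed as they were. The CFLAR to CASP8 and TRADD to FADD ratios stayed lower throughout (exact sign-flip permutation p = 0.25 over pairs, the smallest that 3 pairs allow), and the XIAP to DIABLO ratio ran from 0.08 to 0.40 on the log2 scale. The TNFRSF10D ratio, 0 in 2 libraries, has no log difference, so its test and alternatives could not be run. At these depths TNFRSF10D, with 17 counts over the celastrol wells and 12 over the controls, allows no statement on direction.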
